A study of Mus musculus with 2 samples.

Results

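The Mir130 family, to which the Mir301 loci belong, and the Mir148 family, to which Mir152 belongs, are vertebrate microRNA families with closely related seeds, described here in the hindbrain of the mouse embryo. The members were fixed by name: the microRNA loci Mir130a, Mir130b, Mir301b, Mir148a, Mir148b and Mir152, and the locus in an intron of Ska2 that the annotation calls Mir301 and that makes miR-301a. All 7 had a row in the count tables, out of 1973 microRNA loci in all. Small RNA under 30 nucleotides was sequenced from hindbrain of strain B6NCrl at embryonic day 14.5. The series holds 1 group of 2 libraries, replicate 2 collected on 30 July 2014 and replicate 1 on 24 July 2014, with no treatment or mutant allele named. The labels number the samples as biological replicates 2 and 1. One label gives each sample as a single hindbrain and another as pooled male and female, and both carry the same donor label. Whether they are separate animals is therefore unclear. SDs reflect just the spread of these libraries, which may be technical. The binomial p-values below are set against counting error only and measure no spread between libraries.

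MicroRNAs are RNAs of about the length of these reads that guide Argonaute proteins to messenger RNAs and lower their output. Target choice rests mainly on the seed, bases 2 to 8 from the 5′ end, so microRNAs with the same seed are grouped as a family. The Mir130 family is best known from blood vessels, where miR-130a was described in endothelial cells as a regulator of the homeobox genes Meox2 and Hoxa5, and from blood progenitors. The Mir148 family is known for pairing to messenger RNAs of DNA methyltransferases such as Dnmt1, and miR-148a is abundant in adult liver.

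The 3p arms, the main products of these hairpins, are shown because the seed is what relates the families. RefSeq (GRCm38.p6) held a 3p arm for 6 of the 7 members, and miR-301b-3p is named only. Each sequence runs 5′ to 3′, with the seed in capitals.
miR-130a-3p: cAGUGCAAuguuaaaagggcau
miR-130b-3p: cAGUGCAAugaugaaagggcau
miR-301a-3p: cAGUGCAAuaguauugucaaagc
miR-148a-3p: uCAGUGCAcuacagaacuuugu
miR-148b-3p: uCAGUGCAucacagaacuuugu
miR-152-3p: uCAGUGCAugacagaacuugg

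The 3 arms of the Mir130 family shared the seed AGUGCAA, and the 3 arms of the Mir148 family shared CAGUGCA. The run CAGUGCA stood in all 6, at bases 1 to 7 in the Mir130 family arms and at bases 2 to 8 in the Mir148 family arms, so the families read the same letters displaced by 1 base. Searched on the RNA strand within bases 1 to 9, CAGUGCA occurred in 10 of the 1738 mature mouse entries of the table (0.575%), 6 of them these arms. Anywhere in a hairpin it occurred in 22 of 1005 entries (2.19%). Such a match describes the letters and shows no target site.

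Over all aligned bases, seed included, the arms were identical to different degrees. miR-130a-3p and miR-130b-3p were identical at 20 of 22 bases (90.9%), while miR-130a-3p and miR-301a-3p were identical at 12 of 22 (54.5%). miR-148a-3p and miR-148b-3p were identical at 20 of 22 bases (90.9%), and miR-152-3p matched miR-148b-3p at 19 of 21 (90.5%) and miR-148a-3p at 18 of 21 (85.7%). Across the families, with the shared run aligned and counted, identity was 42.9% to 55.0%. The longest run shared by any 2 of the 6 RefSeq 3p arms was 12 bases, with miR-301b-3p not compared. Between whole hairpins the longest was 16 bases, for Mir301 and Mir301b. None of the 7 members shared a run of 20 bases with another RefSeq hairpin.

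The 5p arms, made from the other side of each hairpin, divided the families further. They are shown because the counts are per hairpin locus and do not separate the arms.
miR-130a-5p: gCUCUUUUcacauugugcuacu
miR-130b-5p: aCUCUUUCccuguugcacuacu
miR-301a-5p: gCUCUGACuuuauugcacuacu
miR-301b-5p: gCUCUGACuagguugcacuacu
miR-148a-5p: aAAGUUCUgagacacuccgacu
miR-148b-5p: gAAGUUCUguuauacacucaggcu
miR-152-5p: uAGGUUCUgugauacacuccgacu

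With the seed in capitals again, miR-301a-5p and miR-301b-5p had the same 5p seed, CUCUGAC, as did miR-148a-5p and miR-148b-5p, AAGUUCU. The 5p seeds of miR-130a, miR-130b and miR-152 were each found in 1 member. Which arm supplied the reads of a locus was not measured.

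In the genome the members lie at 6 places on 5 chromosomes (GENCODE M21, GRCm38). Mir130b (chr16:17124061-17124142) and Mir301b (chr16:17124400-17124496) sit 257 bases apart on the minus strand in an intron of 2610318N02Rik. Mir301 (chr11:87113004-87113089, plus strand) lies in an intron of Ska2, which encodes a spindle and kinetochore protein. Mir148b (chr15:103285125-103285221, plus strand) and Mir152 (chr11:96850393-96850465, plus strand) lie in introns of the paralogs Copz1 and Copz2, which encode zeta subunits of the COPI vesicle coat. Mir130a (chr2:84741115-84741178, minus strand) and Mir148a (chr6:51269812-51269910, minus strand) overlap no annotated host gene. The nearest protein-coding gene is Gm19426 at 990 bases for Mir130a and Nfe2l3, a transcription factor gene, at 162759 bases for Mir148a. Within 10 kb on the same strand, Mir130b and Mir301b were the only members with another microRNA locus of the tables, which in each case was the other of the pair.

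The hairpins of that pair are shown because they lie side by side and yet differed widely in level, as described below. The run CAGUGCA, in capitals, occurs once in each.
Mir130b: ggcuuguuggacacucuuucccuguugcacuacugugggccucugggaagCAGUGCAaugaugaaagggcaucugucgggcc
Mir301b: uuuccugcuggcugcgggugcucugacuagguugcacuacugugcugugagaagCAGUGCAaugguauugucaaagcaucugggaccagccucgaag

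Replicate 2 held 6667238 reads on microRNA loci and replicate 1 held 5826676. Reads that mapped to several positions, 34.3% of the total in replicate 2 and 33.9% in replicate 1, were assigned to no locus. Among the marker lists for this tissue, 8 of the 10 hindbrain and neural loci in the tables were detected (a minimum of 10 counts per library), and the 10 summed to 155765 CPM in replicate 2, against 192899 CPM in replicate 1. CPM gives the gene-strand reads of a locus for every 1000000 such reads over all loci of the library. Mir126a of endothelium had 36687 and 31783 CPM, the 4 blood loci 727 and 569 CPM, and the 3 choroid plexus loci 9091 and 14810 CPM in replicate 2 and replicate 1. The liver microRNA Mir122 had 15.7 and 13.7 CPM, and the 4 muscle loci summed to 16.3 and 14.9 CPM, with Mir1a-1 and Mir133a-1 at 0, in the same order of libraries. In that order too, the 5 mural and mesenchymal loci summed to 7142 and 6849 CPM, and the 2 pituitary and endocrine loci to 822 and 921 CPM. In whole tissue, fewer cells of a type and less RNA per cell cannot be told apart.

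All 7 members were detected, and the Mir130 family was the more abundant in both libraries. The Mir130 family loci together had 213833 counts in replicate 2 and 185294 in replicate 1, which is 3.21% (95% Clopper-Pearson interval 3.19 to 3.22) and 3.18% (3.17 to 3.19) of the counts on microRNA loci. The Mir148 family loci had 4062 counts in replicate 2 and 3418 in replicate 1, or 0.0609% (0.0591 to 0.0628) and 0.0587% (0.0567 to 0.0607). Summed levels were 31937 ± 192 CPM for Mir130 and 598 ± 16.0 CPM for Mir148 (SD, n = 2). The Mir130 family sum was 52.6-fold the Mir148 family sum in replicate 2 (51.0 to 54.3) and 54.2-fold in replicate 1 (52.4 to 56.1). These intervals overlap, and like all intervals here they are computed from read counts and cover counting error only. No molecular identifiers were counted, so the number of reads need not equal the number of molecules. Small RNA cloning favours some sequences over others, so ratios between loci include an unmeasured capture bias. A read spans a whole mature microRNA, so CPM was not divided by length.

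Mir130a supplied most of the Mir130 family reads. It had 25554 CPM in replicate 2 (25434 to 25674) and 24689 CPM in replicate 1 (24563 to 24815), or 25121 ± 612 CPM (SD, n = 2). It ranked 10 among all loci in each library and stood 194-fold above the median detected locus, which had 130 CPM over 401 detected loci. Mir130b, the closest to Mir130a among the 3p arms compared, stood at 3955 CPM in replicate 2 and at 4583 CPM in replicate 1, with a mean of 4269 ± 444 CPM at rank 45. The libraries differed more for Mir130b, with a coefficient of variation of 10.4%, than for Mir130a with 2.43%.

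Mir301, in the Ska2 intron, stood at 2417 CPM in replicate 2 and at 2386 CPM in replicate 1, with a mean of 2401 ± 21.9 CPM at rank 67 (SD, n = 2). It had the smallest coefficient of variation of the 7 members, 0.913%. Mir301b, the partner of Mir130b, had 147 CPM in replicate 2 (138 to 156) and 144 CPM in replicate 1 (134 to 154), a mean of 145 ± 2.01 CPM at rank 196. That is 1.12-fold the median detected locus, so the Mir130 family spanned the range from the 10 most abundant loci to the middle of the detected ones.

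The Mir148 family loci lay closer together and near the middle of the detected range. Mir148b, in Copz1, stood at 286 CPM in replicate 2 (273 to 299) and 292 CPM in replicate 1 (279 to 306), with a mean of 289 ± 4.53 CPM at rank 154 (SD, n = 2). Mir148a had 274 CPM in replicate 2 (261 to 286) and 241 CPM in replicate 1 (229 to 254), with a mean of 257 ± 23.1 CPM at rank 160. Mir152, in Copz2, was the lowest member in each library, with 49.8 CPM in replicate 2 (44.6 to 55.5) and 53.4 CPM in replicate 1 (47.6 to 59.6), a mean of 51.6 ± 2.53 CPM at rank 243. It was the only member below the median detected locus, at 0.397 times its level.

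**Figure D1:**
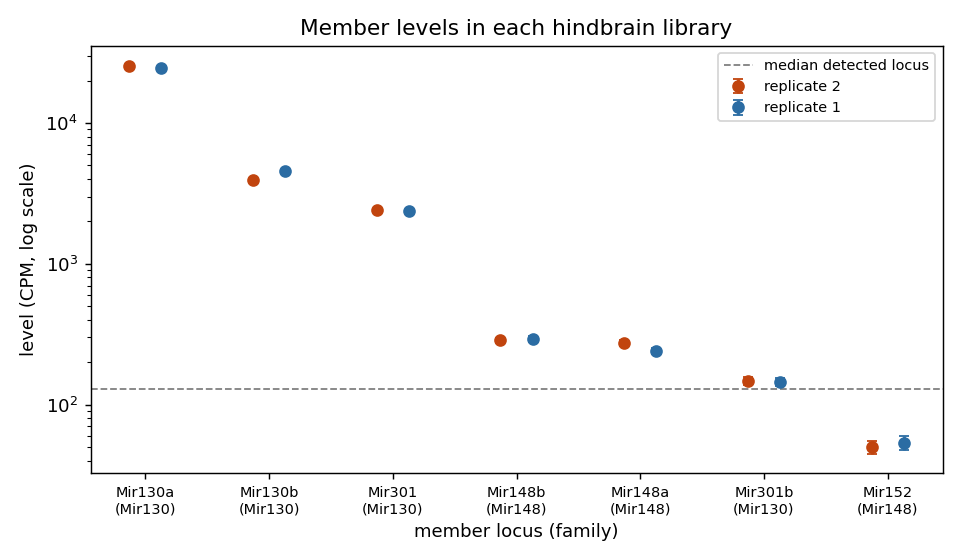
Level of each member in CPM on a log axis, replicate 2 (orange, left) and replicate 1 (blue, right), with 95% Clopper-Pearson intervals of counting error, most of them smaller than the points. Mir130a sits near 25121 CPM and Mir152 near 51.6 CPM, below the dashed median of detected loci at 130 CPM.

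By mean level the order was Mir130a, Mir130b, Mir301, Mir148b, Mir148a, Mir301b and Mir152, and it was the same in both libraries. At each step but that from Mir148b to Mir148a, the counting intervals of neighbours were apart within each library. In replicate 2 the ratio of Mir148a to Mir148b was 0.957 with an interval of 0.897 to 1.02, which includes equal levels, while in replicate 1 it was 0.824 (0.768 to 0.885).

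**Figure D2:**
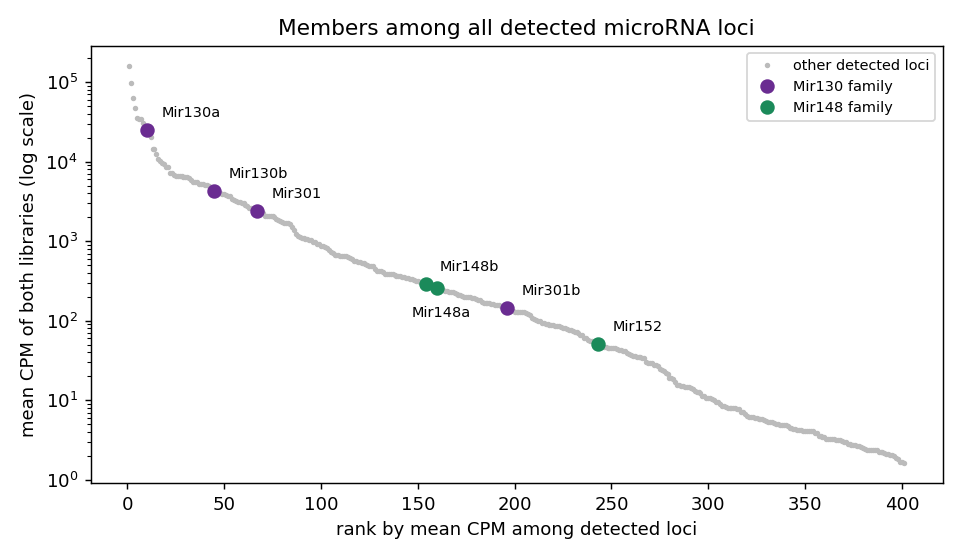
Mean CPM on a log axis against rank for the 401 detected loci (grey), with the Mir130 family loci in purple and the Mir148 family loci in green. Mir130a, Mir130b and Mir301 stand at ranks 10, 45 and 67, and the other members fall between ranks 154 and 243.

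Shares within a family do not depend on how the libraries are scaled against each other. Mir130a made up 79.7% of Mir130 family counts in replicate 2 (79.5 to 79.8) and 77.6% in replicate 1 (77.4 to 77.8). Mir130b made up 12.3% in replicate 2 (12.2 to 12.5) and 14.4% in replicate 1 (14.3 to 14.6), so the intervals of both loci were apart between the libraries. The share of Mir301 was 7.53% in replicate 2 (7.42 to 7.65) and 7.50% in replicate 1 (7.38 to 7.62), and that of Mir301b was 0.458% (0.430 to 0.487) and 0.453% (0.423 to 0.484), with overlapping intervals for both.

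Neighbouring hairpins were not counted equally. In replicate 2 Mir130b had 26.9 reads for each read of Mir301b (25.3 to 28.7), and in replicate 1 it had 31.8 (29.7 to 34.1). The intervals do not overlap, and the ratio in replicate 2 was 0.846 times that in replicate 1. Between Mir301 and Mir301b, which share a 5p seed and lie on different chromosomes, the ratio was 16.5 in replicate 2 (15.4 to 17.6) and 16.6 in replicate 1 (15.5 to 17.8). Mir130a and Mir130b stood at a ratio of 6.46 in replicate 2 (6.38 to 6.55) and 5.39 in replicate 1 (5.32 to 5.46).

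In the Mir148 family, Mir148b and Mir148a held similar shares and Mir152 a small one. Mir148b made up 46.9% of family counts in replicate 2 (45.4 to 48.5) and 49.8% in replicate 1 (48.1 to 51.5), and Mir148a 44.9% (43.4 to 46.4) and 41.1% (39.4 to 42.7). Mir152 held 8.17% in replicate 2 (7.35 to 9.06) and 9.10% in replicate 1 (8.16 to 10.1). Mir148a was the only one of these 3 whose intervals did not overlap between the libraries. The loci in the paralogous hosts Copz1 and Copz2 had a ratio of Mir148b to Mir152 of 5.74 in replicate 2 (5.11 to 6.47) and 5.48 in replicate 1 (4.85 to 6.20).

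**Figure D3:**
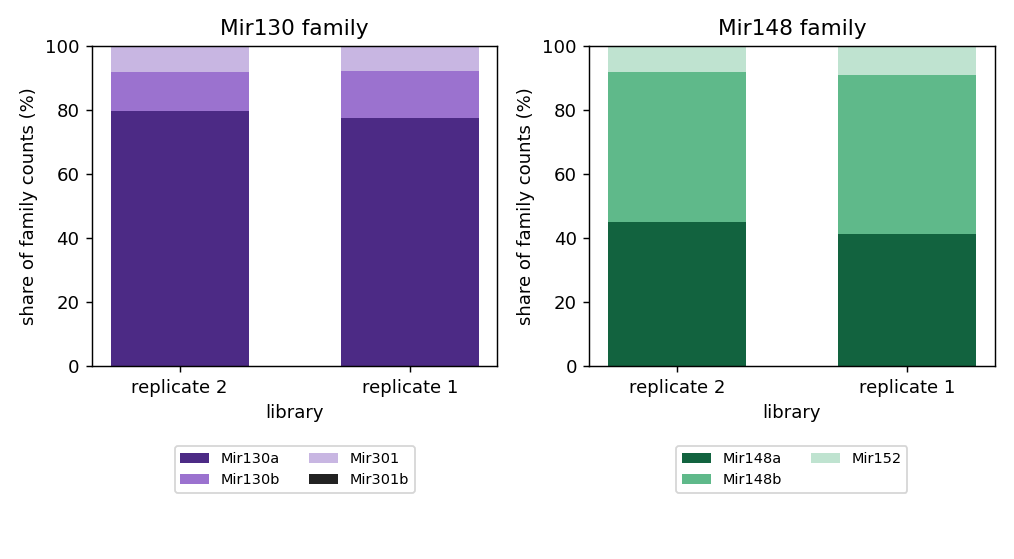
Share of each locus in the counts of its family, in percent, with replicate 2 left of replicate 1. Mir130a fills 79.7% and 77.6% of the Mir130 family bars, Mir301b at 0.458% and 0.453% is too thin to see, and Mir148a and Mir148b divide most of the Mir148 family bars.

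The design has no second condition, so the remaining comparison is between the libraries. Counts were tested per locus with an exact two-sided binomial test after TMM scaling, which corrects for composition, with Benjamini-Hochberg adjustment over 498 loci. The test compares these libraries beyond counting error and has no replicate check. Of the 7 members, 2 were called at an adjusted p of 0.05, 1 higher and 1 lower in replicate 2, against 32.5% of all 498 loci. Among the 257 loci whose libraries sum to 500 counts or more, as those of all 7 members do, 58.0% were called. The members' median log2 ratio was -0.02 and the median size of their log2 ratio 0.07, against 0.01 and 0.18 over the 498 loci and 0.02 and 0.12 over the 257.

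Mir130b fell in replicate 2, with 26369 counts, against 26701 counts in the smaller library of replicate 1. Its log2 ratio of replicate 2 over replicate 1 was -0.26 (95% interval -0.28 to -0.23), a 1.19-fold difference with a binomial adjusted p of 9.0e-91. Mir148a rose in replicate 2, with 1824 counts, against 1404 counts in replicate 1. Its log2 ratio was 0.14 (0.04 to 0.24), a 1.10-fold difference with a binomial adjusted p of 0.0204. With edgeR's exact test and a common dispersion estimated from these libraries (biological coefficient of variation 10.8%), 0 of the 7 members were called. By that test 0 had an unadjusted p under 0.05, and 7 of all 498 loci were called. The dispersion was estimated with both libraries as 1 group, so the differences tested also set it. Few calls could therefore come out, and this is no independent check on the binomial calls. Marker lists differed between the libraries in both directions. The choroid plexus list was lower in replicate 2, as were Mir10a and Mir10b of the hindbrain and neural list, with 140148 CPM in replicate 2 against 179036 CPM in replicate 1. The other 8 loci of that list summed to 15617 CPM in replicate 2, against 13863 CPM in replicate 1, but they did not all move the same way. Most of this sum came from Mir137, with 10645 CPM against 9697 in the same order of libraries. Mir9-3 was lower in replicate 2, at 505 CPM against 527, with a log2 ratio of -0.10. Mir9-2 and Mir124a-2, at 20 counts or fewer per library, were lower there too. The endothelial and blood values given above were higher in replicate 2. The mural and mesenchymal sum was higher in replicate 2 and the pituitary and endocrine sum lower, but Mir214 and Mir7-2 went against the sums of their lists. Collection days also differed, and the part of any of these in the differences of Mir130b and Mir148a was not tested.

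The other 5 members did not pass the binomial test. Mir130a had a log2 ratio of 0.01 (-0.00 to 0.02), Mir301 -0.02 (-0.06 to 0.01) and Mir301b -0.01 (-0.15 to 0.12). Mir148b had -0.07 (-0.17 to 0.02) and Mir152, with 332 counts in replicate 2 and 311 in replicate 1, -0.14 (-0.37 to 0.09). The signs of Mir130a, Mir301 and Mir301b depended on the scaling, and Mir130a was called with library totals, as was Mir301 with DESeq2 size factors or upper quartile scaling. For Mir152 the interval allows a difference as large as that of Mir130b, so depth limits what can be said of it.

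**Figure D4:**
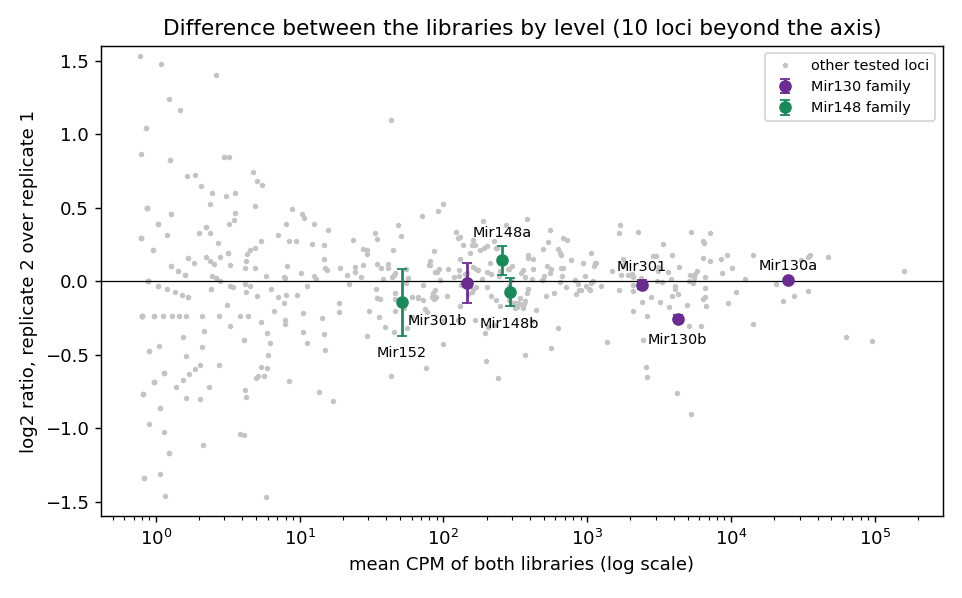
Log2 ratio of replicate 2 over replicate 1 against mean CPM on a log axis for the 498 tested loci, of which 10 lie beyond the axis, with 95% intervals of counting error for the members. Mir130b lies below 0 at -0.26 and Mir148a above 0 at 0.14, and the intervals of the other 5 members include 0.

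Other loci with related seeds had far fewer assigned reads than the Mir130 family. The rule took every other mouse locus whose mature arm had a member's seed, held CAGUGCA within bases 1 to 9, or had a seed containing AGUGCA or CAGUGC or else GUGCAA, and Mir721 and the Mir19 loci by name. Of the 9 such loci in the tables, 4 were detected, and together the 9 reached 431 CPM in replicate 2 and 437 CPM in replicate 1. Those with the same seed as the Mir130 family, Mir130c, Mir6341 and Mir6389, had 0 counts in both libraries, a result that allows a level of up to 0.450 CPM in replicate 2 and of up to 0.515 CPM in replicate 1 (3 counts per library). Mir721, with that seed too, was not analysed here.

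The most abundant of these relatives was Mir350, whose 5p arm has the seed AAGUGCA, with 377 CPM in replicate 2 and 388 CPM in replicate 1. The arms of Mir350 were counted together, so how many of its reads carry that seed was not measured. This locus did not pass the binomial test (log2 ratio -0.08, interval -0.17 to -0.00, adjusted p 0.121). Mir19a, of the proliferation-linked Mir17-92 cluster, has the seed GUGCAAA, which shares the 6 letters GUGCAA with the Mir130 seed.
miR-350-5p: aAAGUGCAugcgcuuuggg
miR-19a-3p: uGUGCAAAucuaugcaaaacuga

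With these seeds in capitals, Mir19a reached 43.2 CPM in replicate 2 and 39.5 CPM in replicate 1 (log2 ratio 0.09, interval -0.17 to 0.34). Mir19b-1 had 6.90 and 7.21 CPM and Mir19b-2 2.55 and 1.89 CPM in replicate 2 and replicate 1. Both make the same miR-19b-3p, so their reads can map to several positions and their levels are uncertain. Mir1960 and Mir291b had at most 7 counts in a library.

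The loci most like the leading member of each family were found by the distance of log2(CPM + 1) over the 2 libraries, which measures closeness of level in 2 points. For Mir130a these were Mir335 in an intron of Mest (distance 0.20), Mir30e (0.22) and Mir487b (0.41). For Mir148b they were Mir760 (distance 0.04), Mir455 (0.05) and Mir485 (0.07), with 278, 285 and 300 CPM in replicate 2 and 295, 283 and 289 CPM in replicate 1.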

How the data were processed

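Small RNA libraries of 2 hindbrain samples were analysed, 1 table each. The authors deposited raw, unnormalized read counts for each microRNA locus, with columns for both strands together and for each strand. Per the file lists deposited with them, the tables use mm10 and annotation M4. Their aligner and counter are not given in the sources used. The strand with the larger total was taken as the gene strand (97.8% of counts on loci in replicate 2, 98.0% in replicate 1). The 4 rows of unassigned reads stayed out of library sizes. Of 14348369 reads in replicate 2 and 11804816 in replicate 1, 15.9% and 13.8% were unmapped, and reads mapping to several positions are in no locus.

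GENCODE M21, on the same build, gave symbols, matched for 1894 of 1973 loci, and sequences from RefSeq GRCm38.p6. Ratios added 0.5 to each count. Loci whose libraries sum to 10 counts or more were tested, scaled by TMM (factors 1.01 in replicate 2 and 0.985 in replicate 1), since edgeR's quasi-likelihood fit has no residual degrees of freedom here. Intervals are Clopper-Pearson at 95%, and the floor for a count of 0 is 3 counts per library. The named loci are the members, the seed relatives and, for the leading member of each family, the 3 loci nearest in level. Members and lists were chosen with earlier results of these data known. The background at a summed count of 500 was added after the values were seen. The comparison was tested on simulated counts with known folds and counting error only. The simulation held no spread between libraries, so calls that arise from such spread were not assessed. Alternatives changed strand, denominator, scaling, pseudocount, count filter and dispersion. Scaling used edgeR 4.0.16 and DESeq2 1.42.0 under R 4.3.3, tests scipy 1.17.1 under Python 3.11.15 with pandas 2.3.3 and numpy 2.4.6, and figures matplotlib 3.10.9.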

Additional observations from a re-analysis of the deposited data

Results flagged for a closer look

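At Mir130a the opposite-strand column, which no comparison uses, held 3 counts in replicate 2 and 7 counts in replicate 1, of which the second lies above the limit of 3 that a count of 0 allows. The gene strand of this locus had 170373 counts in replicate 2 and 143854 in replicate 1. The other 6 members had 0 opposite-strand counts in both libraries.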

How the results depend on the processing

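The mean level of the Mir130 family was 31267 CPM with both strands counted, 15300 per 1000000 of all reads and 38045 CPM without the most abundant locus in the denominator. That of the Mir148 family was 286 per 1000000 of all reads and 712 CPM without that locus. The log2 ratio of Mir130a turned to -0.0098 with DESeq2 size factors and -0.0091 with upper quartile scaling and was 0.05 and called with library totals. With library totals Mir301 turned to 0.019 and Mir301b to 0.028. The 2 called members became 3 with library totals, DESeq2 size factors or upper quartile scaling, and 0 with edgeR's common dispersion, where Mir130b and Mir148a kept their signs. That dispersion was set by the same differences that it was used to test, so the 0 is no independent check. Mir130b, Mir148a, Mir148b and Mir152 kept their signs under all 9 alternatives. Leaving out a replicate leaves each level and share at the other library's value, given in the report, and no difference to test, so it shows nothing about stability.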
